A study of Mus musculus with 3 samples.

Results

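The data are RNA-seq levels of 9 chemokine genes in E3 mouse ESCs grown on feeder fibroblasts: Ccl2, Ccl5, Ccl7, Cxcl1, Cxcl5, Cxcl10, Cxcl12, Cxcl16 and Cx3cl1. The genes were chosen by symbol among the 32545 rows of the deposited table, and all 9 had a mean TPM (a read level scaled for gene length and for the total of the library) of 0.5 or more, the filter on low values that 19950 genes passed. The study asked what knockdown of Usp17l, a family of deubiquitinases active in the 2-cell program, does to gene expression in ESCs. 3 samples were used, 1 per group, all at passage 7: Control, which is E3 carrying the empty vector, and 2 knockdown lines of Usp17l, KD4 and KD9. The blastocysts behind E3 came from a C57BL/6 × 129S6 cross, and the cells of all 3 groups were kept in serum with LIF on mouse embryonic fibroblast (MEF) feeders. The knockdown lines were each picked as a clone after transfection of shRNA plasmids and puromycin selection, so clone and knockdown cannot be told apart. The table gives 2 columns for each knockdown line and 1 mapped column for Control. A further column, headed Control_2, has no match among the labels and was left out. Because each line has 1 labelled sample, its columns were averaged into 1 value, and for the members they differed by 0.02 to 0.29 on the log2 scale.

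Chemokines are small secreted proteins that draw leukocytes along a gradient. They are named for the spacing of their first cysteines (CC, CXC and CX3C) and act through G protein-coupled receptors on the target cell. Fibroblasts make several of them when NF-kappaB, which responds to cytokines and microbial products, or the interferon pathway is active. ESCs are known for weak innate immune signalling.

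The levels describe a mixture of cells. All 7 defining fibroblast markers and all 4 defining ESC markers were above 0 in every column, so transcripts of both cell types were present. The summed TPM of 29 fibroblast markers was 8484 in Control, 2794 to 2823 in KD4 and 6931 to 7037 in KD9. That of 14 ESC markers was 5474 in Control, 7629 to 7688 in KD4 and 5756 to 5769 in KD9. KD4 therefore held 33.1% of the fibroblast marker sum of Control and KD9 82.3%. In bulk samples, fewer cells of a type and less RNA per cell cannot be told apart, and neither can the cell type from which a chemokine transcript came. Usp17le, the target of the shRNAs with the highest TPM in Control, was at a TPM of 1.82 in Control, 0.0637 to 0.151 in KD4 and 0.331 to 0.374 in KD9. Depth is unknown, since TPM keeps none.

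4 of the 9 members matched an entry in the RefSeq promoter table (GRCm38.p6, the assembly behind mm10): Cxcl1, Cxcl10, Cxcl12 and Cx3cl1. The 250 bases before the start are shown for 3 of them, 5′ to 3′ on the gene's strand. A link between their motifs and the levels below was not tested. Capitals mark matches, on either strand, to the NF-kappaB consensus, to the interferon-stimulated response element (GAAA, NN, GAAA) and to AP-1 (TGANTCA).
Cxcl10, chr5:92348890-92349139, minus strand: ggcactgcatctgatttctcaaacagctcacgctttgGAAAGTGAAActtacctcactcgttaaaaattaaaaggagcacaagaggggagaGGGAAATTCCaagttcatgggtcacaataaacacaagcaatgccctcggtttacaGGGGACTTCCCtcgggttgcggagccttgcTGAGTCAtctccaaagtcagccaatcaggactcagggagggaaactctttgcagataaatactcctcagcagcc
Cxcl1, chr5:90890995-90891244, plus strand: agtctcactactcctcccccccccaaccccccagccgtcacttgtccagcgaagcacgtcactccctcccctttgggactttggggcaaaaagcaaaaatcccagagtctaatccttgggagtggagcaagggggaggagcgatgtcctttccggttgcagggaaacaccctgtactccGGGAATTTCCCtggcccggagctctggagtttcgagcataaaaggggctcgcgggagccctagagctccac
Cxcl12, chr6:117168285-117168534, plus strand: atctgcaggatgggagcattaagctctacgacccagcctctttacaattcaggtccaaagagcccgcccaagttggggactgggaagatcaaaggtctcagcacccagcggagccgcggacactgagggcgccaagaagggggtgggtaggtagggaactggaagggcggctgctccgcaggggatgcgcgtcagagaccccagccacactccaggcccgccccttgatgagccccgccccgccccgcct
The Cxcl10 window held the interferon element at 213 to 204 bases before the start. It also held an NF-kappaB match at 159 to 150, a second at 104 to 94 that reads in overlapping registers, and an AP-1 match at 74 to 68. The Cxcl1 window held a match to the NF-kappaB consensus at 71 to 61 bases before the start, read on both strands. The Cxcl12 window held none of these 3 motifs and 5 GC boxes (GGGCGG), which overlap at one place. The Cx3cl1 window (chr8:94771930-94772179, plus strand), which reaches into the GENCODE span of the gene, held none of the 3 either. It had 1 GC box at 27 to 22 bases before the start and the letters of a TATA box (TATAAA) at 6 to 1. Of 32851 promoter windows of this length, 7.25% held the NF-kappaB consensus, 2.98% the interferon element, 6.75% the AP-1 motif, 32.7% the GC box and 12.4% the TATA box. A match is a description of letters, not a site in use.

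Ccl2 and Ccl7, ligands that draw monocytes through Ccr2, were the most abundant members. They lie side by side on chromosome 11 of mm10 (Ccl2 from 82035571 to 82037453, Ccl7 from 82045712 to 82047525, plus strand), separated by 8.26 kb. Ccl2 was at a TPM of 759 in Control, 245 and 260 in KD4, and 889 and 848 in KD9. Ccl7 was at 747 in Control, 244 and 200 in KD4, and 911 and 882 in KD9. Both KD4 columns lay below Control and both KD9 columns above it for each gene. Ccl2 was thus 3.003-fold lower in KD4 than in Control and Ccl7 3.37-fold lower, while in KD9 they were at 1.14 and 1.20 times the Control level. In Control the TPM of Ccl2 exceeded that of 99.5% of the rows of the table. The TPM ratio of Ccl2 to Ccl7 was 1.02 in Control, 1.004 and 1.31 in KD4 and 0.976 and 0.961 in KD9. The pair therefore kept near-equal levels in 4 of the 5 columns.

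Ccl5, a ligand that draws T cells and monocytes, lies on chromosome 11 from 83525778 to 83530518 (minus strand). Its TPM was 26.9 in Control, 9.08 and 7.92 in KD4, and 30.8 and 27.7 in KD9. The order of samples was that of Ccl2 and Ccl7, with a level 3.17-fold lower in KD4 and 1.09 times Control in KD9. The ratio for KD9 lies close to 1, although both of its columns were above Control.

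Cxcl1 and Cxcl5, CXC ligands that draw neutrophils through Cxcr2, did not share a pattern. They lie in the same cluster on chromosome 5 (Cxcl5 from 90759360 to 90761624, Cxcl1 from 90891241 to 90893115, plus strand). Cxcl1 was at a TPM of 141 in Control, 26.1 and 27.4 in KD4, and 209 and 204 in KD9. KD4 was thus 5.26-fold below Control and KD9 at 1.47 times its level. Cxcl5 was at a TPM of 10.99 in Control, 14.7 and 16.0 in KD4, and 125 and 133 in KD9. It was the only member with both KD4 columns above Control, at 1.40 times its level, and in KD9 it reached 11.8 times. The TPM ratio of Cxcl1 to Cxcl5 was 12.8 in Control, 1.78 and 1.72 in KD4, and 1.66 and 1.53 in KD9. The ratio thus fell in a narrow range in all 4 knockdown columns, although the levels of both genes were several times higher in KD9.

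Cxcl10, an interferon-induced ligand of Cxcr3 that draws activated T cells, was the member with the lowest levels relative to Control in both lines. It lies on chromosome 5 from 92346638 to 92348889 (minus strand), and its promoter is the first of those shown. Its TPM was 253 in Control, 8.86 and 9.90 in KD4, and 53.5 and 45.5 in KD9. The level was 26.9-fold lower in KD4 and 5.10-fold lower in KD9, each against the 1 Control column. Every KD4 column lay below every KD9 column, an order that 29.9% of all genes showed. The TPM ratio of Ccl2 to Cxcl10 was 3.01 in Control, 27.7 and 26.3 in KD4, and 16.6 and 18.6 in KD9. Art3, a gene on the opposite strand that overlaps Cxcl10 in the GENCODE M21 annotation, was at a TPM of 16.5 in Control, 0.688 and 0.676 in KD4, and 4.02 and 3.29 in KD9. The counting is not stated to use strand, so reads of the overlapping pair cannot be told apart.

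Cxcl12, the ligand of Cxcr4 and of the scavenging receptor Ackr3, varied least among the members relative to Control in KD4. It lies on chromosome 6 from 117168535 to 117181367 (plus strand). Its TPM was 14.2 in Control, 12.2 and 13.1 in KD4, and 20.5 and 21.2 in KD9. KD9 was at 1.47 times Control and KD4 was 1.12-fold below it, with both columns of each line on the same side of Control.

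Cxcl16 and Cx3cl1 are the members made as membrane proteins, with a chemokine domain on a mucin-like stalk that Adam10 and Adam17 can cut. Cxcl16 (chromosome 11, 70453983 to 70459984, minus strand) was at a TPM of 21.2 in Control, 7.43 and 7.67 in KD4, and 12.1 and 13.1 in KD9. Like Cxcl10, it had all 4 knockdown columns below Control, and its level was 2.81-fold lower in KD4 and 1.68-fold lower in KD9. Of all genes, 43.9% had every KD4 column below Control and 49.8% every KD9 column. Cx3cl1 (chromosome 8, 94772009 to 94782427, plus strand), which binds Cx3cr1, was at a TPM of 7.44 in Control, 3.88 and 3.997 in KD4, and 10.2 and 10.1 in KD9. Its KD4 level was 1.89-fold below Control and its KD9 level 1.36 times Control. Zmynd15, which overlaps Cxcl16 on the opposite strand, was at a TPM of 6.81 in Control, 4.36 and 3.96 in KD4, and 5.73 and 6.18 in KD9. Gm17268, not analysed here, overlaps Ccl2 on the opposite strand of that annotation.

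**Figure D1:**
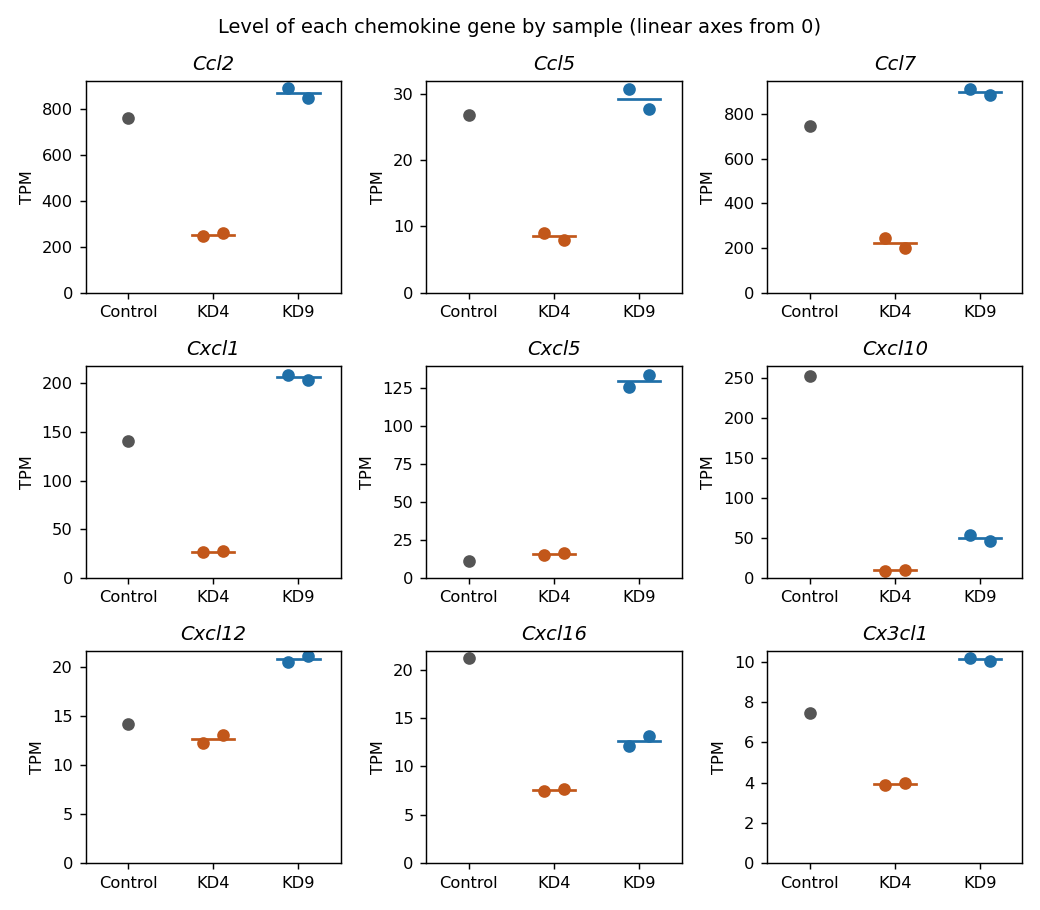
TPM (y axis, linear from 0) of each member by sample: points are the deposited columns, and the lines for KD4 and KD9 mark the mean of the 2 columns of that line. Control has 1 column; in TPM as deposited KD4 lies below Control in every panel but that of Cxcl5, and Cxcl10 and Cxcl16 are the panels in which KD9 also lies below it.

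The order of the members by TPM changed between samples. Ccl2 and Ccl7 led everywhere and Cx3cl1 was last everywhere. Cxcl10 ranked 3 in Control, 6 in KD4 and 5 in KD9, whereas Cxcl5 ranked 8 in Control and 4 in both lines. Neighbours whose columns overlapped were Cxcl10 and Ccl5 in KD4 and Ccl7 and Ccl2 in KD9. Control has 1 column, so its order has no spread. Summed over the 9 genes, the TPM was 1981 in Control, 572 and 546 in KD4, and 2262 and 2185 in KD9. Ccl2 and Ccl7 made up 76.1% of the sum in Control, 84.2 to 85.6% in KD4 and 79.2 to 79.6% in KD9. Cxcl10 made up 12.8% in Control, 1.55 to 1.81% in KD4 and 2.08 to 2.37% in KD9.

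Against Control, KD4 was lower for most chemokines and KD9 was not, a direction that held under the rescaling by median ratios but not relative to fibroblast markers (below). On the scale log2(TPM + 0.1), the fold changes of the 9 members had a median of -1.59 for KD4 and 0.26 for KD9, beside -0.02 and -0.06 over all 19950 genes. 6 members (Ccl2, Ccl5, Ccl7, Cxcl1, Cxcl10 and Cxcl16) were more than 2-fold lower in KD4, a fold that 9.5% of all genes passed, and none was more than 2-fold higher (5.18% of all genes). In KD9 only Cxcl10 was more than 2-fold lower (5.45% of genes) and only Cxcl5 more than 2-fold higher (4.21%). Cxcl10 was the 1 member more than 2-fold lower in both lines (3.2% of genes), with log2 fold changes of -4.74 and -2.35, and no member was more than 2-fold higher in both (2.47%). Both lines were set against the same Control column, so these comparisons share it. The 1 control column used gives no replicate check on any of them. Both columns of KD4 lay below Control for 8 of the 9 members, an order that 43.9% of all genes showed. Both columns of KD9 lay above it for 7 (34.7%) and below it for 2 (49.8%). KD4 below and KD9 above Control held for 6 members and 8.81% of all genes.

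With KD4 and KD9 as 2 samples of knockdown against the lone Control, limma called no gene at an adjusted p under 0.05, in a fit with 1 residual degree of freedom that assumes Control to vary like the lines. At an unadjusted p under 0.05, 535 genes were lower (2.68%) and 506 higher (2.54%). Cxcl10 was the 1 member among them, with a log2 fold change of -3.54 (standard error 1.06, adjusted p = 0.859 in limma). The next was Cxcl16 at -1.11 (standard error 0.41, adjusted p = 0.973 in limma), while Cxcl5 had 2.01 with a standard error of 1.35. Values that miss the threshold are not thereby shown to be equal. With each column as its own library, limma called 1384 genes lower (6.94%) and 781 higher (3.91%). Ccl2, Ccl5, Cxcl1, Cxcl10 and Cxcl16 were among the lower and Cxcl5 among the higher (adjusted p in limma from 0.00898 to 0.0426). The error of that fit comes from the columns within a line, and neither variation between lines nor between control cultures enters it.

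KD4 lay below KD9 for every member. All KD4 columns were below all KD9 columns for 9 of 9 members, an order that 29.9% of all genes showed, and 7 members were more than 2-fold lower in KD4 than in KD9 (7.67% of genes). The difference was largest for Cxcl5 (KD9 8.43 times KD4) and Cxcl1 (7.71 times). It was smallest for Cxcl12 (1.65 times) and Cxcl16 (1.67 times). In a contrast of the lines within the limma fit on columns, chosen after seeing the data, all 9 were lower in KD4 (13.4% of genes; adjusted p from 0.00221 to 0.0105). Each line is 1 labelled sample, so that contrast measures these columns only. Relative to the fibroblast markers described next, 3 members (Cxcl1, Cxcl5 and Cxcl10) were more than 2-fold lower in KD4 than in KD9, as were 1.95% of all genes, and relative to the defining ones 0 members and 1.09%.

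The fibroblast markers moved in the same direction between the lines. Of the 29, 26 were more than 2-fold lower in KD4 (9.5% of all genes). In KD9 none was more than 2-fold lower (5.45% of all genes), 3 were more than 2-fold higher (4.21%) and 10 lay above Control. The median on the log2 scale was -2.27 for KD4 and -0.19 for KD9. Col1a1, an alpha chain of type I collagen, was at a TPM of 1198 in Control, 182 and 184 in KD4, and 767 and 760 in KD9. Col3a1, a type III collagen chain, was at 114 in Control, 6.14 and 6.66 in KD4, and 125 and 128 in KD9. Dcn, Lum and Tgfbi, extracellular matrix genes, were the 3 that were higher in KD9, at log2 fold changes of 1.27, 2.57 and 1.44. Relative to the summed TPM of all 29 markers in the same sample, a scaling that moves the median of all genes to 1.56 in KD4 and 0.22 in KD9, the members' median was 0.0085 for KD4 and 0.54 for KD9. Ccl2, Ccl5 and Ccl7 were then at log2 fold changes of 0.0085, -0.07 and -0.16 in KD4. On that scale Cxcl10 was still more than 2-fold lower in both lines, at -3.15 in KD4 (2.1% of 21550 genes) and -2.07 in KD9 (4.01%). Cxcl5 was more than 2-fold higher, at 2.07 in KD4 and 3.82 in KD9 (8.05% of genes), and Cxcl12 in KD4 at 1.42. Cxcl5 was the 1 member more than 2-fold higher in both lines, as were 7.14% of all genes. In KD4 80.3% of all genes were more than 2-fold higher on that scale, against 2 of the 9 members. Relative to the 7 defining markers alone, a scaling chosen after seeing the data in which the sum was 16.7% of Control in KD4 and 73.0% in KD9, the members' median was 0.99 for KD4 and 0.72 for KD9. Cxcl10 stayed below Control there too, at -2.17 in KD4 (1.12% of 22870 genes were more than 2-fold lower) and -1.90 in KD9 (3.69%). On that scale 4 members were more than 2-fold higher in KD4, as were 93.7% of all genes, 3 in KD9 (11.6%) and 2 in both lines (11.1%). Relative to the medians of all genes under either scaling, these values return close to those of the deposited TPM, by construction. The part of the fibroblast share in the chemokine levels was not tested.

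**Figure D2:**
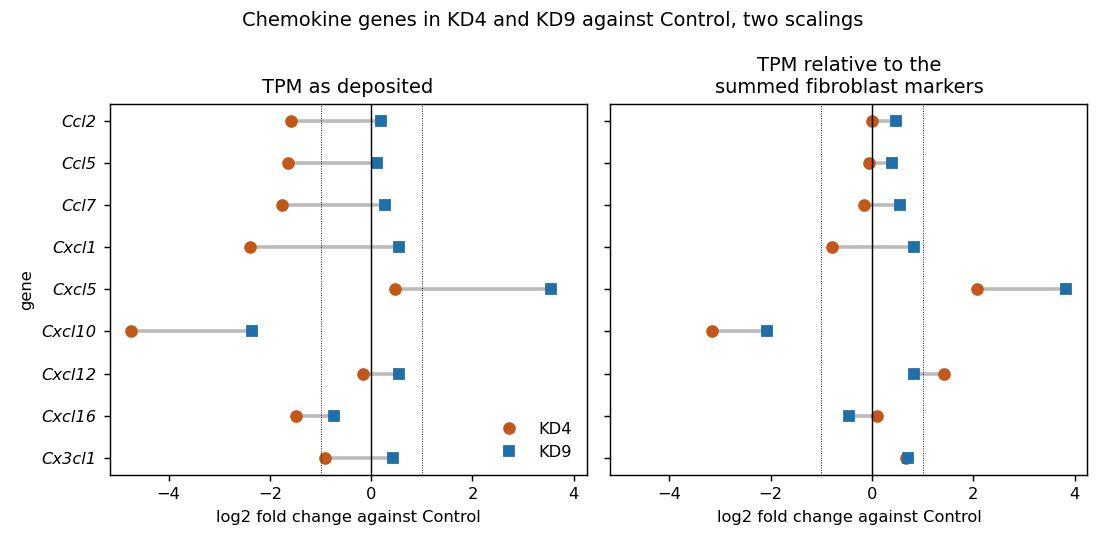
Log2 fold change against Control (x axis) of each member in KD4 (circles) and KD9 (squares), from TPM as deposited (left) and from TPM divided by the summed TPM of 29 fibroblast markers (right); dotted lines mark a 2-fold change. The median of the members in KD4 is -1.59 on the left and 0.0085 on the right, while Cxcl10 is below -2 on both sides in both lines.

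Other chemokine ligands were mostly low. Of 32 further ligands listed, 26 were in the table and 18 passed the filter, with medians of -1.64 for KD4 and 0.51 for KD9 on the log2 scale. Relative to the 29 fibroblast markers the medians were -0.12 and 0.79, and relative to the 7 defining ones the first turned to 0.85. 10 of the 18 were more than 2-fold lower in KD4 (9.5% of all genes) and 1 higher (5.18%). In KD9 3 were lower (5.45%) and 6 higher (4.21%). Among the 10, Ccl8, Ccl11 and Ccl12 were listed at 0 in KD4. Among the 6, Cxcl3 passed the filter only through KD9 and Ccl9 mainly so. Ccl17, lower in both lines, passed it mainly through Control. Cxcl14 was the most abundant, at a TPM of 15.0 in Control, 3.57 and 3.33 in KD4, and 22.7 and 20.9 in KD9. Ccl20, which binds Ccr6, was at 12.8 in Control, 3.24 and 3.30 in KD4, and 6.48 and 7.07 in KD9. Both had a lower TPM in KD4 than in either other sample. Cxcl9, like Cxcl10 an interferon-induced ligand of Cxcr3, was at a TPM of 10.6 in Control, 0.0332 and 0.210 in KD4, and 1.47 and 0.925 in KD9. It lies 18.6 kb from Cxcl10 in the annotation, and its order of samples was that of Cxcl10. Cxcl11, 10.7 kb beyond Cxcl10 and named after its values were seen, was at a TPM of 1.49 in Control, 0.0264 and 0.2003 in KD4, and 1.80 and 2.16 in KD9, so its KD9 columns were above Control.

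The genes around the members, named here after their values were seen, differed within a cluster. Beside Ccl2 and Ccl7 on chromosome 11, the eosinophil attractant Ccl11 was at a TPM of 2.88 in Control, 0.684 and 1.46 in KD9, and was listed at 0 in both KD4 columns. Ccl12 and Ccl8 were also listed at 0 in KD4, from 1.997 and 1.91 in Control. In KD9 Ccl12 was above Control, at 3.06 and 4.33, and Ccl8 below it, at 1.29 and 1.82. Beyond Ccl5, the ligands Ccl9, Ccl6, Ccl3 and Ccl4 were at a TPM of 0.512, 1.14, 2.16 and 0.443 in Control, and their KD9 means were 3.13, 8.09, 10.35 and 2.68. All 4 were more than 2-fold higher in KD9 (4.21% of all genes) while their neighbour Ccl5 was at 1.09 times Control. Ccl9 was at 0.428 and 0.291 in KD4 and passed the filter mainly through KD9. Ppbp, the listed ligand closest to Cxcl5 on chromosome 5, had log2 fold changes of -0.15 for KD4 and 0.50 for KD9. Beyond it, Pf4 had 1.16 and 2.51 and Cxcl3 0.80 and 3.03, beside 0.48 and 3.54 for Cxcl5. Pf4 was at a TPM of only 0.406 in Control and Cxcl3 at 0.111. Cxcl3 was at 0.172 and 0.362 in KD4, and passed the filter only through KD9, at 2.19 and 1.06. Cxcl2, next to Cxcl1, had -3.28 and -0.46, beside -2.39 and 0.55 for Cxcl1.

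Immune markers were higher in KD9 as a sum but not each of them. The summed TPM of 10 such markers was 39.3 in Control, 42.1 to 47.0 in KD4 and 85.0 to 91.9 in KD9. Of the 8 above the filter, 4 were more than 2-fold higher in KD9 (4.21% of all genes). Adgre1, among these 4, was under a TPM of 0.5 in the Control and KD4 columns and passed the filter only through KD9. Lyz2, a lysozyme of macrophages and neutrophils, was at 6.30 in Control, 6.85 and 7.41 in KD4, and 39.2 and 35.7 in KD9. Adgre1, the macrophage marker F4/80, was at 0.452, 0.495 and 0.117, and 2.41 and 2.01 in the same order, and Ptprc, the pan-leukocyte marker CD45, lay at or below 0.0762 in every column. Of the other defining markers, Itgam was lower in KD9, at 2.48, 1.10 and 0.933, and 1.67 and 2.15 in that order, and Csf1r was at 5.25, 4.51 and 5.66, and 6.29 and 6.62. No defining immune marker was listed at 0 in any column. The part of such cells in the KD9 levels of Cxcl5 and of the ligands beside Ccl5 was not tested.

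**Figure D3:**
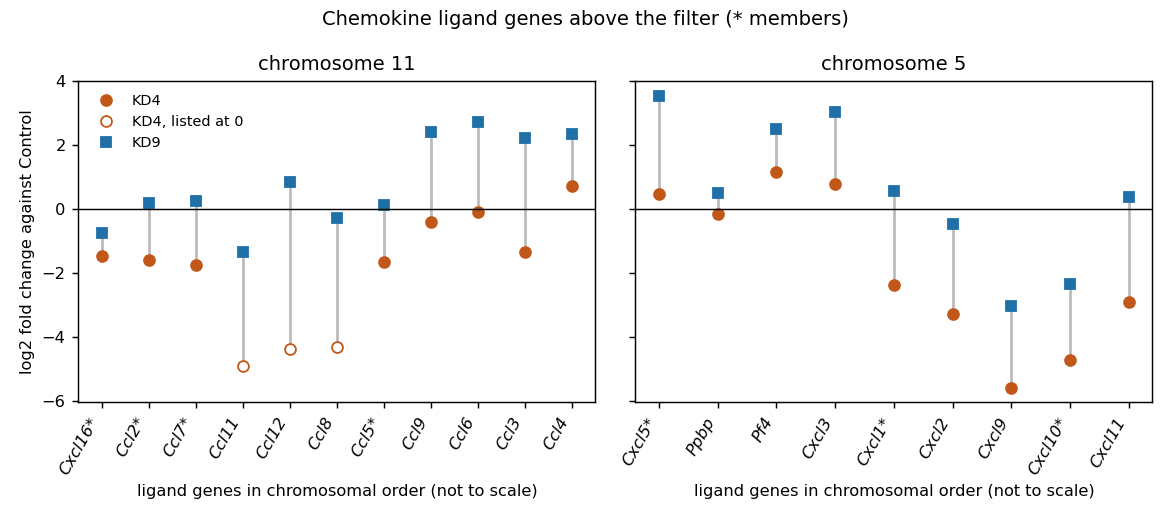
Log2 fold change against Control (y axis) of the chemokine ligand genes above the filter on chromosomes 11 and 5, in chromosomal order and not to scale; asterisks mark the members, circles KD4 and squares KD9. Open circles are genes listed at 0 in both KD4 columns, where the position reflects only the pseudocount and the Control level. Cxcl5, Cxcl3, Pf4 and Ccl4 lie above 0 in both lines. Of these, Cxcl3, Pf4 and Ccl4 were at a TPM of only 0.111, 0.406 and 0.443 in Control, beside 10.99 for Cxcl5. Cxcl2, Cxcl9, Cxcl10, Cxcl16, Ccl8 and Ccl11 lie below 0 in both lines.

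Most chemokine receptors in the table were under the filter. Of 24 receptors, 21 were in the table and 5 passed the filter. Of these 5, 2 were more than 2-fold lower in KD4 (9.5% of all genes) and 1 in KD9 (5.45%). Cxcr4, a receptor of Cxcl12, was at a TPM of 1.83 in Control, 0.610 and 0.911 in KD4, and 0.773 and 0.977 in KD9. Ackr3, the other receptor of Cxcl12, was at 6.20 in Control, 4.43 and 4.62 in KD4, and 11.6 and 10.2 in KD9. For Cxcl12 and Ackr3 alike KD9 was highest and KD4 lowest. Ccrl2, a receptor-like protein, was at 1.31 in Control, 0.154 and 0.195 in KD4, and 0.506 and 0.537 in KD9. It was lower in both counts and passed the filter mainly through Control. Ccr2, the receptor of Ccl2 and Ccl7, and Cxcr2, that of Cxcl1 and Cxcl5, were under the filter, with no column above a TPM of 0.0445. Among 5 proteases that act on chemokines, Adam10 and Adam17 had log2 fold changes of -0.50 and -0.27 for KD4 and -0.08 and 0.06 for KD9. Mmp9, a gelatinase, was at a TPM of 234 in Control, 14.3 and 14.8 in KD4, and 85.1 and 82.5 in KD9. Mmp2, which is also on the fibroblast list, was at 97.2, 36.6 and 35.7, and 103 and 98.5 in the same order.

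Genes of the pathways that control chemokine transcription were set beside the members, in TPM as deposited. Of 16 NF-kappaB pathway genes, 4 were more than 2-fold lower in KD4 (9.5% of all genes) and 1 in KD9 (5.45%). Their medians were -0.65 and -0.02. The feedback inhibitor Tnfaip3 was at a TPM of 13.9 in Control, 2.88 and 2.24 in KD4, and 6.48 and 6.88 in KD9. Nfkbia, another inhibitor and NF-kappaB target, was at 178 in Control, 85.6 and 88.3 in KD4, and 177 and 184 in KD9. Of these, Tnfaip3 was below Control in both lines, and Nfkbia in KD4. All 15 interferon response genes were below Control in KD4, 13 of them more than 2-fold (9.5% of all genes), with a median of -2.71. In KD9 12 were below Control and 1 more than 2-fold (5.45%), with a median of -0.30. Isg15, a ubiquitin-like protein induced by interferon, was at a TPM of 772 in Control, 125 and 139 in KD4, and 676 and 702 in KD9. Rsad2, an antiviral enzyme, was at 39.9, 2.27 and 2.37, and 15.6 and 14.5 in the same order. In KD9 the log2 fold change of Cxcl10 (-2.35) was below that of every one of the 15, of which Rsad2 was lowest at -1.40. Among 12 other inflammatory products above the filter, 5 were more than 2-fold lower in KD4 (9.5% of all genes). In KD9 4 were more than 2-fold higher (4.21%), and the medians were -0.92 for KD4 and 0.43 for KD9. Il1rn, among these 4, was under a TPM of 0.5 in the Control and KD4 columns and passed the filter only through KD9. Il33, an alarmin cytokine, was at a TPM of 4.83 in Control, 0.938 and 1.40 in KD4, and 5.41 and 5.54 in KD9, and Ptgs2, the inducible cyclooxygenase, at 204, 165 and 158, and 325 and 331. No gene of any list passed limma in the fit on 3 samples, in which no gene of the table passed. Relative to the 29 fibroblast markers the KD4 medians were 0.93 for the NF-kappaB genes, 0.53 for the other inflammatory products, 0.72 for the receptors and 1.09 for the proteases, each with its sign turned and each below the 1.56 of all genes. That of the interferon response genes was -1.12, and relative to the 7 defining markers -0.13, beside 2.54 for all genes.

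**Figure D4:**
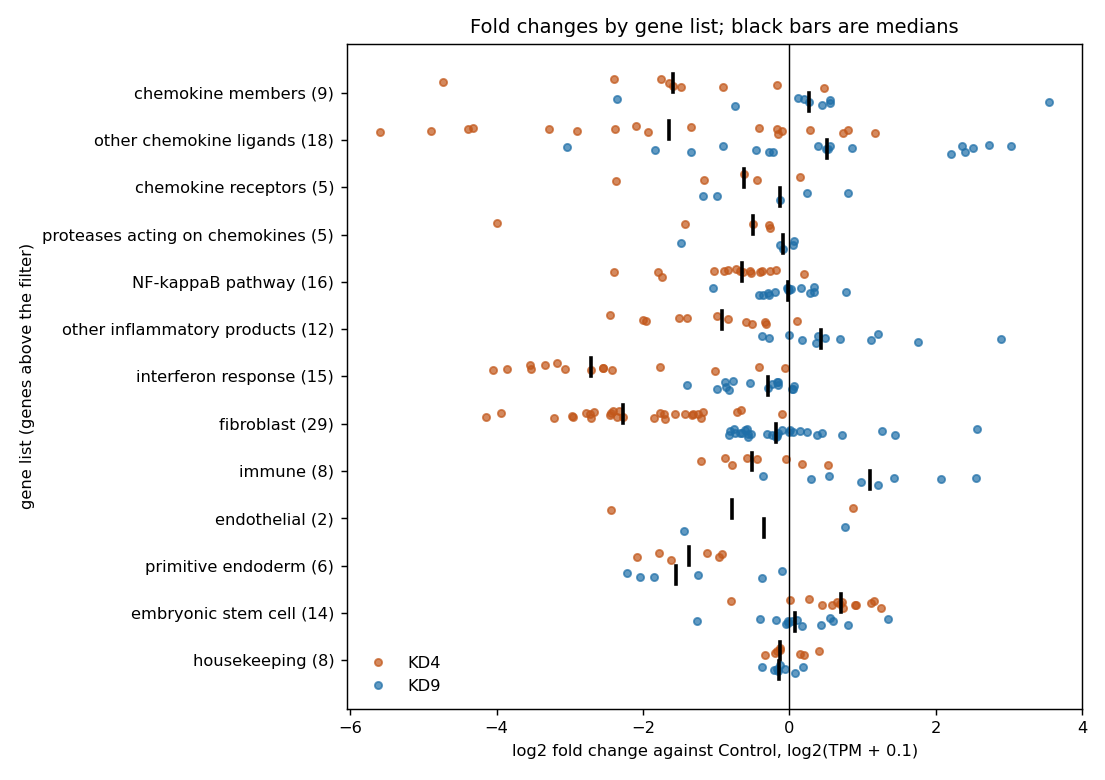
Log2 fold change against Control (x axis) of the genes above the filter in each list, with the number of genes in brackets, for KD4 (upper rows, orange) and KD9 (lower rows, blue); points are genes and black bars medians. The chemokine members have medians of -1.59 and 0.26, beside -2.27 and -0.19 for the fibroblast markers and -2.71 and -0.30 for the interferon response genes; relative to the fibroblast markers the first turns to 0.0085.

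The remaining marker lists give the setting of these levels. ESC markers had medians of 0.70 for KD4 and 0.07 for KD9. The 6 primitive endoderm markers, among them Gata4 and Sox17, had -1.37 and -1.55, and relative to the 29 fibroblast markers 0.19 and -1.28. In each line 4 were more than 2-fold lower (9.5% of all genes in KD4 and 5.45% in KD9). Sox17, among the 4 in both lines, passed the filter only through Control. Of 5 endothelial markers 2 passed the filter, with log2 fold changes of -2.44 and -1.45 for Flt1 and 0.87 and 0.76 for Tek, and the defining markers Cdh5 and Vwf lay under it. Housekeeping genes had medians of -0.12 and -0.15.

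The genes most like Ccl2 and Cxcl1 over the 5 columns were sought among all genes outside the 9. For Ccl2, the CC member with the highest mean TPM over the 3 samples (Ccl7 was higher in KD9), the smallest distances of centred log2(TPM + 0.1) among 12940 other genes whose mean TPM reached 5 were those of Angptl4 (0.11), Dkk2 (0.13) and Mxra8 (0.14). Ccl5 and Ccl7 were at 0.22 and 0.36. For Cxcl1, the CXC member with the highest such mean (Cxcl10 was higher in Control), they were those of Mmp13 (0.34), Cxcl14 (0.36) and Mgp (0.39), whereas Cxcl5 was at 2.62 and Cxcl10 at 2.42. Angptl4 was at a TPM of 26.3 in Control, 8.07 and 8.16 in KD4, and 28.4 and 27.3 in KD9, and Mmp13 was at 24.7, 5.66 and 6.16, and 41.7 and 36.1. These 5 columns come from 3 samples, so the distances are a description.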

How the data were processed

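RNA-seq of 3 E3 mouse ESC samples was used. Libraries held mRNA selected on poly-T beads, and the authors deposited TPM values, made from reads trimmed in Trim Galore, placed on mm10 by HISAT2 and, where uniquely mapped, counted per gene by featureCounts at default settings. Tool versions and the gene annotation are not given in the sources used here. Each column sums to 1000000 TPM, which keeps no depth, so no count model and no interval from counts was used. 5 columns were mapped to samples by name, and 1 per-sample column, headed Control_2, that matches no labelled sample was not used. The columns of a line (Pearson r 0.956 in KD4 and 0.968 in KD9 across tested genes; genes are not independent) were averaged. The study's legends speak of biological replicates for TPM in the knockdown ESCs, but the labels give 1 sample per line and do not say that its columns are separate cultures, so a p from a fit on columns may measure technical spread only.

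Values were set as log2(TPM + 0.1), which understates changes of low genes, over the 19950 genes whose mean TPM reached 0.5. For a line on its own, a fold above 2 is given as a description. Ratios of TPM were taken without a pseudocount. Knockdown was tested with limma 3.58.1 under R 4.3.3 (eBayes with a trend, two-sided, Benjamini-Hochberg over all genes, adjusted p under 0.05). The fit was run on simulated data in which every gene had the same spread. It called 66 of 100 genes with a log2 effect of 1.5, 100 of 100 with -3, and 6 of 19750 unchanged genes. Spread differs between genes in the data, so these counts do not give the power of the fit here. Tables were made with Python 3.11.15.

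The members and lists were chosen with earlier results of these data known. Named genes are the 9 members, from each list the 2 most abundant and the 2 with the largest mean change, of which a part is printed, and the 3 genes most like Ccl2 and Cxcl1. The members' own receptors, cluster neighbours, Ccl17, Adam10, Adam17, Dcn, Lum, Tgfbi, Ptprc, Itgam, Csf1r, Cdh5 and Vwf were named after values were seen. Alternatives changed the pseudocount, filter, fold, scaling, columns and fit. Coordinates come from GENCODE M21 (mm10). No 50-base window of 8 members' transcripts there occurs in another gene, and 13 of 1876 windows of Cxcl5 do. Promoters come from RefSeq on GRCm38.p6.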

Additional observations from a re-analysis of the deposited data

Results flagged for a closer look

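KD4 and KD9 lay on opposite sides of Control in every column for 6 members, with KD4 below and KD9 above, a pattern that 8.81% of all tested genes showed. The difference, KD4 minus KD9 on the log2 scale, was -1.78 for Ccl2, -1.77 for Ccl5, -2.01 for Ccl7, -2.94 for Cxcl1, -0.71 for Cxcl12 and -1.34 for Cx3cl1. With 1 labelled sample per line, these differences were not tested over samples. In the limma fit on columns, whose error is the spread between columns of a line, all 6 passed (adjusted p from 0.00221 to 0.00942). Relative to the summed fibroblast markers, only Ccl5, Ccl7 and Cxcl1 of the 6 kept KD4 below Control.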

How the results depend on the processing

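Depth is unknown, which limits genes of low TPM, and 1 control limits every fold change. Other pseudocounts, filters, median ratios and the choice of column turned no member's direction. The median of the members in KD4 was -1.55 with a pseudocount of 1, -1.57 with median ratios, -1.56 with the first and -1.54 with the second column of each line; in KD9 it was 0.33 with median ratios. Relative to all 29 fibroblast markers, medians were 0.0085 (a reversed direction) in KD4 and 0.54 in KD9. Then 1 member was more than 2-fold lower and 2 higher in KD4, 1 was higher in both lines, and 3 were lower in KD4 than in KD9. In KD4 the sign turned for Ccl2 (0.0085), Cxcl16 (0.10), Cxcl12 (1.42) and Cx3cl1 (0.67), the first 2 of which had been more than 2-fold lower. Relative to the 7 defining markers, chosen after seeing the data, medians were 0.99 (reversed) and 0.72. Then 1 member was lower and 4 higher in KD4 (93.7% of all genes were higher), 3 higher in KD9 (11.6%), 2 higher in both lines (11.1%), and 0 lower in KD4 than in KD9 (1.09%). In KD4 the sign turned for Ccl2 (0.99), Ccl5 (0.92), Ccl7 (0.83), Cxcl1 (0.19), Cxcl16 (1.09), Cxcl12 (2.41) and Cx3cl1 (1.65). These reversals follow from dividing by a sum that was lower in KD4. At a fold over 1.5, 2 members were lower in KD9 and 2 in both lines. Without 1 of the lines, members counted in both ranged from 1 to 6 lower and from 0 to 1 higher. With each column as its own library, limma called 1384 genes lower and 781 higher, against none in the other settings. Without a line limma has no residual spread, so that fit was not run. No paired analysis was possible because the samples share no replicate numbers beyond 1 per group.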
